A study of Mus musculus with 10 samples.

Results

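Polycomb repressive complex 2 (PRC2) is represented here by 10 genes. They were chosen by name from textbook knowledge of the complex, but with earlier results of these data known. The core genes were Ezh1, Ezh2, Eed and Suz12. The PRC2.1 accessory genes were Mtf2, Phf1, Phf19 and Epop, and the PRC2.2 accessory genes were Jarid2 and Aebp2. All 10 were found among the 33006 genes of the count table, with Epop under its older symbol E130012A19Rik, and all 10 passed the filter on low counts. RNA came from E14 mouse embryonic stem cells whose NPM1, a histone chaperone of the nucleolus, carries a degron, a tag through which auxin triggers destruction of the protein. The cells were arrested in G1 and released for 12 h without auxin (2 libraries) or with auxin (2 libraries). Every culture, with or without auxin, had the NPM1 degron genotype and was kept in medium with LIF and inhibitors of MEK (PD0325901, 1 µM) and GSK3 (CHIR99021, 3 µM). The file headers name a single clone for all 4 RNA libraries, and untagged cells with auxin were not analysed here. H3K27me3 peaks came from 1 ChIP-seq sample at 6 h without auxin and 1 CUT&RUN sample at 12 h labelled control. The series also holds CUT&RUN samples with auxin at 12 h. They were not analysed here, so the mark was not compared between conditions.

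PRC2 places methyl groups on lysine 27 of histone H3, and H3K27me3 marks silent developmental genes in embryonic stem cells. The catalytic subunit EZH2, or its less active paralog EZH1, works only when bound to SUZ12, the scaffold, and EED, which reads existing H3K27me3 and stimulates the enzyme. Accessory subunits join SUZ12 in alternative assemblies: PRC2.1 holds a Polycomb-like protein (PHF1, MTF2 or PHF19) with EPOP or a PALI protein, and PRC2.2 holds JARID2 and AEBP2.

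The promoters of 4 members are shown here because the core paralogs Ezh1 and Ezh2 moved in opposite directions, while Ezh2, Suz12 and Phf19 were the members whose promoter held E2F-type letters (TTTCCCGC, TTTGGCGC, TTTCGCGC or TTTGCCGC on either strand). E2F factors drive many S phase genes, and Ezh2 and Eed are known E2F targets. Each sequence runs 5′ to 3′ on the gene's strand from 250 bases before to 50 bases after the RefSeq start (GRCm38.p6), and capitals mark the E2F-type letters.
Ezh1, chr11:101226414-101226713, minus strand: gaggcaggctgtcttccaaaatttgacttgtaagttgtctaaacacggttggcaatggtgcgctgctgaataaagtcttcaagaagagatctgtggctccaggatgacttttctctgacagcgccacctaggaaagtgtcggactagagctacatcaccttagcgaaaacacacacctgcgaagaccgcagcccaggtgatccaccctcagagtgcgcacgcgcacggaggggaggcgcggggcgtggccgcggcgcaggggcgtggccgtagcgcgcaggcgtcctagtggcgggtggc
Ezh2, chr6:47594981-47595280, minus strand: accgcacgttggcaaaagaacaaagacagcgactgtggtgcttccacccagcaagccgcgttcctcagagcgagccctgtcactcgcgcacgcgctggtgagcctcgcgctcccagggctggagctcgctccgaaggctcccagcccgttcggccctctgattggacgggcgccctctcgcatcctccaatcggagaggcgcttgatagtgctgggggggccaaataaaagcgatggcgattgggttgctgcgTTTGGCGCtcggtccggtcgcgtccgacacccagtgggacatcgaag
Suz12, chr11:79992856-79993155, plus strand: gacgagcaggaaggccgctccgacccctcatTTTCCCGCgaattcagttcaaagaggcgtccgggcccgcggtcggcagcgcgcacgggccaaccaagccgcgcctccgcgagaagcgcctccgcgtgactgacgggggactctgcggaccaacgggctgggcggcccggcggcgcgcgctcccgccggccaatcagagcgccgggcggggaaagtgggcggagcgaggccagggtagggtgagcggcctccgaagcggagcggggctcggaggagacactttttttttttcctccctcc
Phf19, chr2:34913927-34914226, minus strand: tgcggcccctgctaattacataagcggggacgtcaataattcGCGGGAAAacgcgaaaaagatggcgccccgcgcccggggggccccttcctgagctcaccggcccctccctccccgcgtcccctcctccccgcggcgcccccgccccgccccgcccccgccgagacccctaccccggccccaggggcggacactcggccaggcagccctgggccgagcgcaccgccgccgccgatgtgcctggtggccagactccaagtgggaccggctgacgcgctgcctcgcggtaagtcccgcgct

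RefSeq promoters were matched for 9 of the 10 members, with 13 sequences because Mtf2, Jarid2 and Aebp2 have more than 1. The E2F-type letters stood in 3 of these 13 promoters, from 3 members, against 2.26% of all 32851 promoters. Of the 13, 10 were rich in CpG (observed over expected CpG of at least 0.6), at least 1 for each of the 9 members. The letters stood in 3 of these 10 and in 5.02% of the 11765 CpG-rich promoters. In Ezh2 the match TTTGGCGC began 3 bases after the start, in Suz12 the match TTTCCCGC began 219 bases before it, and in Phf19 the reverse form GCGGGAAA began 208 bases before it. None of these letters stood in the windows of Ezh1, Eed, Mtf2, Phf1, Jarid2 or Aebp2. Ezh2 also carried 3 copies of the NF-Y letters CCAAT, counting both strands, which stood in 5 of the 10 CpG-rich member promoters and in 35.7% of all CpG-rich promoters (37.4% of all promoters). The SP/KLF letters GGGCGG, likewise on either strand, stood in 7 of those 10, in 72.3% of all CpG-rich promoters and in 35.7% of all promoters. Of the other letters sought, those of NRF1, ETS, CRE and the E-box stood in 0 of the 13 member promoters. Their shares of all CpG-rich promoters were 6.15%, 8.55%, 3.65% and 11.3%. Those of YY1 and the TATA box stood in 1 of the 13 each, and in 4.85% and 5.98% of all CpG-rich promoters. These are matches of letters only: Ezh2 fell with auxin, while Suz12 and Phf19 were not called, so members that share the E2F-type letters did not share a call.

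Total counts were 14789851 and 15183126 in the libraries without auxin, against 13353446 and 16046290 in those with auxin. The mitochondrial transcripts took 3.46% to 4.96% of them. Npm1 stood at 1058 and 951 CPM (counts relative to the TMM-scaled library size) without auxin and at 843 and 767 CPM with auxin, but the degron acts on the protein, so this transcript does not check the labels. The 10 embryonic stem cell markers were all abundant, with a summed level of 3446 to 3620 RPKM (CPM per kilobase of exon) without auxin and 3334 to 3453 RPKM with auxin. Of these markers 2 rose (Nanog, Fgf4), 5 fell (the smallest p in Esrrb and Tdgf1) and 3 were not called. By the same test, 13.0% of all genes tested rose and 14.5% fell. Fibroblast markers, for feeder cells, summed to 2.69 to 2.85 RPKM without auxin and 3.71 to 5.23 RPKM with auxin. Of 10 such markers 4 passed the count filter and 1 rose (Pdgfrb, log2 fold change 1.45), while Fap had no count in any library and Postn none in 3 of 4. The part of these differences in the PRC2 values was not tested. No label says that replicates were separate cultures, so the p-values rest on library-to-library spread alone, possibly a technical one.

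Auxin moved the PRC2 transcripts in both directions and by small amounts. Of the 10 members, 3 rose (Ezh1, Mtf2, Phf1), 3 fell (Ezh2, Eed, Jarid2) and 4 were not called (Suz12, Phf19, Epop, Aebp2), by edgeR's quasi-likelihood test at an adjusted p under 0.05. Over all 13522 genes tested, 13.0% were called higher, 14.5% lower and 27.5% either way. The CPM of the groups did not overlap for 8 of the 10 members, against 64.8% of all genes tested. The median log2 fold change was 0.16 over the members and 0.01 over all genes tested, and the median size of change of called genes was 0.38. Scaling by total counts in place of TMM shifted the median of all genes to 0.11 and the calls from 1759 higher and 1964 lower to 2735 higher and 988 lower. With that scaling 5 members were higher and 2 lower. With DESeq2 the member called higher was Mtf2, and 3 were lower. The same 3 members were lower whichever library was left out, but the member called higher was Ezh1 without no-auxin replicate 1, Aebp2 without no-auxin replicate 2 and Mtf2 without auxin replicate 2, while 4 were higher without auxin replicate 1. In bulk RNA a smaller share of cells that make a transcript cannot be told apart from less of it per cell.

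**Figure D1:**
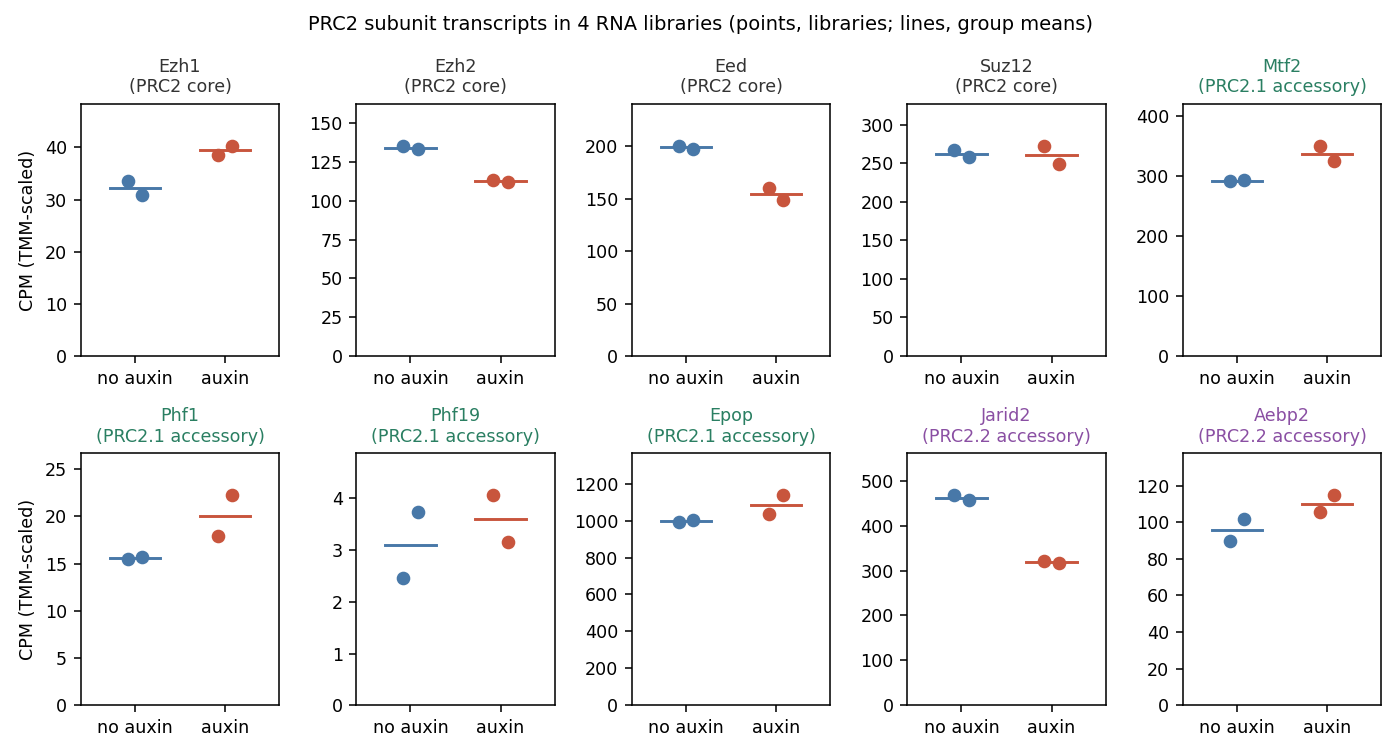
Levels of the 10 transcripts in CPM (vertical axes, each from 0) in the libraries without auxin (blue) and with auxin (red), with points for libraries and lines for group means of 2. Jarid2, Eed and Ezh2 sit lower in both auxin libraries, Ezh1, Mtf2 and Phf1 sit higher, and the points of Suz12 and Phf19 overlap.

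Among the core genes the catalytic paralogs moved in opposite directions, the reader subunit fell and the scaffold was not called. Ezh1 (mm10, chromosome 11, 101191115 to 101226463, minus strand) encodes the alternative methyltransferase, which is more prominent in non-dividing cells. Its level was 33.6 and 30.9 CPM without auxin and 38.6 and 40.3 CPM with auxin. Both auxin libraries were above both libraries without auxin. The log2 fold change was 0.29 (SE 0.08, 95% interval 0.10 to 0.48, edgeR adjusted p = 0.0258), a 1.22-fold rise. This call was lost without no-auxin replicate 2 (adjusted p = 0.168), without auxin replicate 2 (adjusted p = 0.0979) and with DESeq2 (adjusted p = 0.148).

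Ezh2 (chromosome 6, 47530274 to 47595341, minus strand), the main methyltransferase of dividing cells, stood at 135 and 133 CPM without auxin and at 113 and 112 CPM with auxin. The replicates lay close together and the groups did not overlap. This was a log2 fold change of −0.25 (SE 0.06, edgeR adjusted p = 0.00656), or 1.19-fold lower. With scaling by total counts the value was −0.16 and the call was lost (adjusted p = 0.0672).

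Eed (chromosome 7, 89954656 to 89980983, minus strand), the subunit that binds H3K27me3, had 200 and 198 CPM without auxin and 160 and 148 CPM with auxin. Both auxin libraries were below both libraries without auxin. The log2 fold change of −0.37 (SE 0.06, edgeR adjusted p = 0.000743), 1.29-fold lower, stayed past the threshold in all 10 alternatives.

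Suz12 (chromosome 11, 79993106 to 80034123, plus strand), the scaffold on which both kinds of PRC2 are built, had 267 and 258 CPM without auxin and 272 and 249 CPM with auxin. The auxin libraries held both the highest and the lowest value. The log2 fold change was −0.01 with an interval of −0.13 to 0.11 (edgeR adjusted p = 0.899). Its sign turned with upper-quartile scaling and with total counts. It also turned without no-auxin replicate 1 (0.01) and without auxin replicate 2 (0.06).

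Within a library, the ratio of Ezh1 to Ezh2 per kilobase of exon does not depend on how libraries are scaled. It was 0.207 and 0.193 without auxin and 0.283 and 0.298 with auxin, so Ezh2 exceeded Ezh1 by 4.82-fold and 5.17-fold without auxin and by 3.53-fold and 3.35-fold with it. The ratio was higher in both auxin libraries, and Ezh2 remained the more abundant paralog in every library. The shift was 0.54 on the log2 scale, from a mean log2 ratio of −2.32 ± 0.07 to −1.78 ± 0.05 (SD, n = 2). The exact two-sided permutation test gave p = 0.333, the smallest p that 2 against 2 libraries allow. Leaving out any library kept the shift between 0.49 and 0.59.

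The remaining core ratio was that of the paired structural subunits, chosen like the next ratios after the values were seen and given with no test. Eed over Suz12 per kilobase was 1.67 and 1.71 without auxin and 1.31 and 1.33 with auxin. It was lower in both auxin libraries. Per kilobase Eed was above Suz12 in all 4 libraries, but in CPM it was below Suz12 in all 4. The exon lengths are 2218 bases for Eed and 4945 for Suz12. Ezh1 and Ezh2 together over Suz12 gave 0.487 and 0.492 without auxin and 0.426 and 0.468 with auxin, also lower in both auxin libraries.

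The PRC2.1 accessory genes had positive log2 fold changes in 4 of 4, of which 2 passed the test and none fell, with a median of 0.20. Over all genes tested, 13.0% were called higher and the median was 0.01. With DESeq2 the count called higher in this class was 1 of 4. Without no-auxin replicate 1 the Phf19 value was −0.06, so the 4 positive signs did not hold in every setting. Mtf2, Phf1 and Phf19 encode the Polycomb-like proteins, which bind CpG-rich DNA and methylated lysine 36 of histone H3. Mtf2 (chromosome 5, 108065674 to 108109004, plus strand), the most abundant of these paralogs per length in every library, had 293 and 293 CPM without auxin and 351 and 325 CPM with auxin. The libraries without auxin were nearly equal and both below the auxin libraries. A log2 fold change of 0.21 resulted (SE 0.05, edgeR adjusted p = 0.0133), or 1.15-fold. Leaving out no-auxin replicate 1 (adjusted p = 0.0604), no-auxin replicate 2 (adjusted p = 0.0534) or auxin replicate 1 (adjusted p = 0.0833) ended this call.

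Phf1 (chromosome 17, 26933127 to 26937890, plus strand) had 15.5 and 15.7 CPM without auxin and 17.9 and 22.2 CPM with auxin. All auxin values were higher, with most of the spread between the auxin libraries. Its log2 fold change was 0.37 (SE 0.12, 95% interval 0.10 to 0.65, edgeR adjusted p = 0.0444). Without auxin replicate 2 the value was 0.21 (adjusted p = 0.385), and the call was also lost with DESeq2 (adjusted p = 0.195) and without no-auxin replicate 1 (adjusted p = 0.0993) or no-auxin replicate 2 (adjusted p = 0.0720).

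Phf19 (chromosome 2, 34893757 to 34914026, minus strand) was the least abundant member, with 35 and 55 counts without auxin and 55 and 53 counts with auxin. This corresponds to 2.46 and 3.73 CPM without auxin and 4.06 and 3.15 CPM with auxin. The groups overlapped, and the lowest value was no-auxin replicate 1. A log2 fold change of 0.20 had an interval of −0.37 to 0.78 (edgeR adjusted p = 0.604), so changes as large as those called in other members were not detectable at this depth. Without no-auxin replicate 1 its value was −0.06.

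Epop (chromosome 11, 97627393 to 97629716, minus strand), which links PRC2 to Elongin B and C, was the most abundant member. It had 995 and 1006 CPM without auxin and 1034 and 1137 CPM with auxin. The groups did not overlap, but the gap between them was narrower than the spread of the auxin libraries. Its log2 fold change was 0.12 with an interval of −0.0002 to 0.24 (edgeR adjusted p = 0.126). It passed the threshold with total counts (adjusted p = 0.0233) and without auxin replicate 1 (adjusted p = 0.0109).

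The PRC2.2 accessory genes, whose products bind chromatin carrying ubiquitylated histone H2A, went different ways. Jarid2 (chromosome 13, 44729474 to 44921643, plus strand), a cofactor that recruits PRC2 and is itself methylated by it, had 467 and 457 CPM without auxin and 321 and 317 CPM with auxin. The gap between the groups was far wider than either replicate spread. With a log2 fold change of −0.54 (SE 0.05, edgeR adjusted p = 2.11e-05), Jarid2 was 1.45-fold lower. This was the steepest change among the 10 members and the only one larger than the median size of change of called genes. It stayed past the threshold in all 10 alternatives, between −0.56 and −0.44.

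Aebp2 (chromosome 6, 140622449 to 140678472, plus strand), a zinc finger protein that stimulates the enzyme, had 89.8 and 102 CPM without auxin and 106 and 115 CPM with auxin. Its auxin libraries were higher, with a gap between the groups narrower than the spread within either. The log2 fold change was 0.20 (95% interval 0.04 to 0.36, edgeR adjusted p = 0.0619), which did not pass the test. It did pass with upper-quartile scaling (adjusted p = 0.0400), total counts (0.0177) and no expression filter (0.0251), and without no-auxin replicate 2 (0.0203) or auxin replicate 1 (0.0118).

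**Figure D2:**
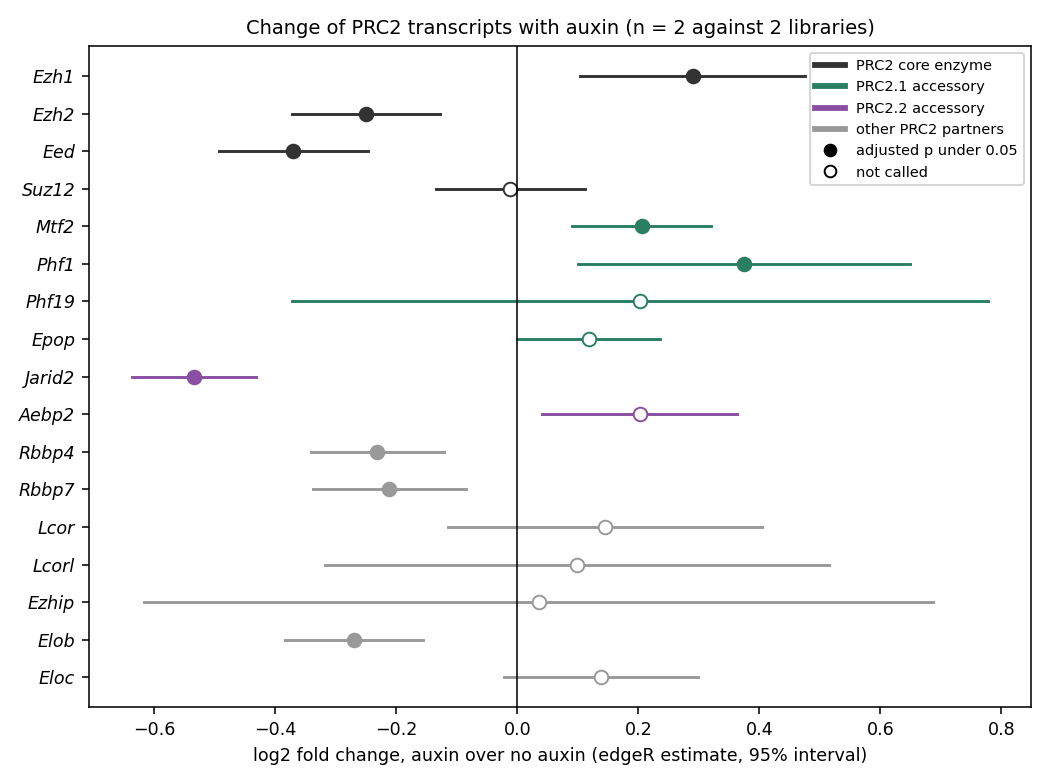
Log2 fold change with auxin (horizontal axis) for the 10 members and 7 further partners, with 95% intervals from edgeR over 2 against 2 libraries. Filled points passed an adjusted p of 0.05: Jarid2 lies lowest at −0.54, and the 4 PRC2.1 genes lie to the right of 0, with Phf19 and Epop not called.

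Ratios of accessory transcripts within a library were also apart in the conditions. Within PRC2.2, Jarid2 over Aebp2 per kilobase was 4.35 and 3.75 without auxin and 2.54 and 2.31 with auxin. Between the classes, Jarid2 over Mtf2 was 0.865 and 0.845 without auxin and 0.496 and 0.528 with auxin. The sum of Mtf2, Phf1 and Phf19 over the sum of Jarid2 and Aebp2 was 1.06 and 1.05 without auxin and 1.62 and 1.53 with auxin. In each of these ratios the values of the conditions did not overlap. For single genes, CPM did not overlap in 64.8% of all genes tested. Per kilobase no ratio crossed 1, but where a ratio stands against 1 depends on the exon lengths. In CPM, Jarid2 was above Mtf2 without auxin (467 and 457 against 293 and 293). With auxin it was below Mtf2 (321 and 317 against 351 and 325). All of these are ratios of transcripts and say nothing of protein or of assembled complexes.

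**Figure D3:**
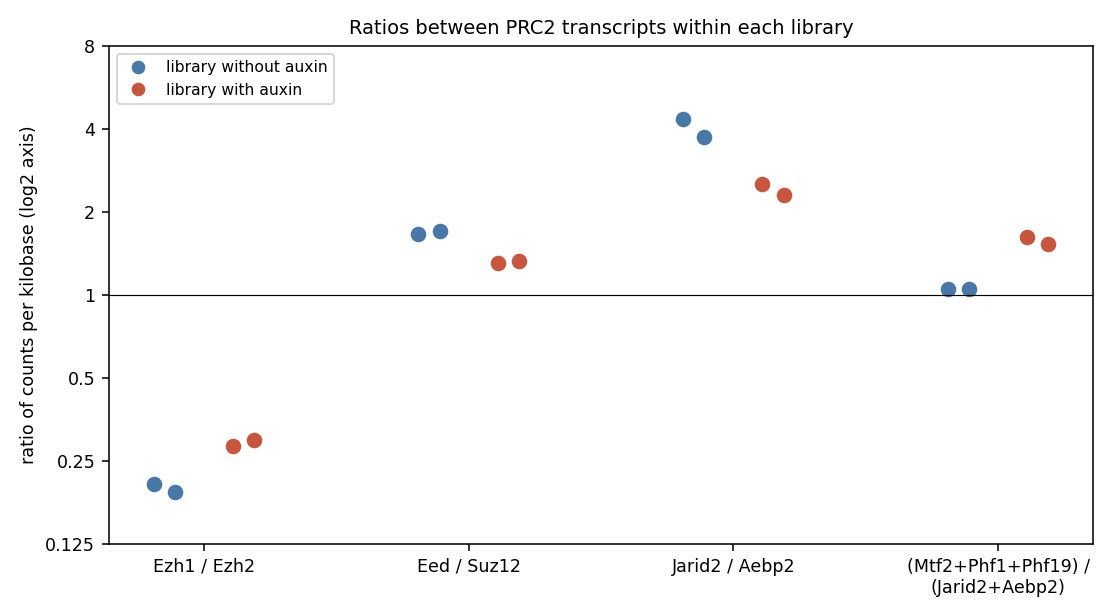
Ratios of counts per kilobase of exon within each library (vertical axis, log2 scale; line at 1) without auxin (blue) and with auxin (red), 1 point per library. Ezh1 over Ezh2 and the Polycomb-like sum over the PRC2.2 sum are higher with auxin, and Eed over Suz12 and Jarid2 over Aebp2 are lower.

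Levels per length spanned 701-fold without auxin between the highest and the lowest member. In order, the mean levels without auxin were 430 RPKM for Epop, 89.8 for Eed, 55.7 for Mtf2, 53.1 for Suz12 and 47.6 RPKM for Jarid2. The lower members were Ezh2 at 21.7 RPKM, Aebp2 at 11.8, Phf1 at 6.41, Ezh1 at 4.34 and Phf19 at 0.614 RPKM. This order was the same in all 4 libraries, and no member's range overlapped that of its neighbour in either condition. The closest neighbours were Mtf2 and Suz12 without auxin, at 1.05-fold, and Eed and Mtf2 with auxin, at 1.08-fold (69.5 ± 3.65 against 64.2 ± 3.42 RPKM, SD, n = 2), where the gap was smaller than the sum of the SDs. Among all genes tested, Epop stood at percentile 99.3 of the level without auxin, Ezh2 at 77.7, Ezh1 at 41.9 and Phf19 at 13.4. Exon lengths sum all annotated exons of a gene, so a member with long exons outside its main transcript has a lower value per length.

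The genes whose profile over the 4 libraries was most like that of Ezh1, by Euclidean distance of centred log2 CPM, were Suco (0.0181), Haus5 (0.0184) and Nfe2l2 (0.0194). For Ezh2 they were Eif6 (0.00637), Smc4 (0.00885) and Ndufv1 (0.00994). With 4 libraries such likeness is a description only.

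Of 7 further PRC2 partners, 3 fell, none rose and 4 were not called, against 14.5% called lower and 13.0% higher among all genes tested. Rbbp4 and Rbbp7 encode the histone-binding subunits that PRC2 shares with other chromatin complexes. Rbbp4 had 561 and 552 CPM without auxin and 490 and 459 CPM with auxin (log2 fold change −0.23, edgeR adjusted p = 0.00578). For Rbbp7 the values were 282 and 269 CPM and then 250 and 227 CPM (log2 fold change −0.21, edgeR adjusted p = 0.0190). Elongin B (Elob), to which EPOP binds together with Elongin C, had 184 and 188 CPM without auxin and 154 and 155 CPM with auxin (log2 fold change −0.27, edgeR adjusted p = 0.00302). In all 3 genes both auxin libraries were lower. Elongin C (Eloc) had a log2 fold change of 0.14 (edgeR adjusted p = 0.184), Lcor 0.15 (adjusted p = 0.393) and Lcorl 0.10 (adjusted p = 0.736). Lcor and Lcorl hold the PALI isoforms, but counts summed by gene name do not separate these from the other transcripts of each gene. Ezhip, an inhibitor of PRC2, was low, at 1.82 CPM on average without auxin and 1.86 CPM with auxin (log2 fold change 0.03, edgeR adjusted p = 0.943). With scaling by total counts 1 of the 7 partners fell and 1 rose.

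Genes that act against or beside PRC2 also split, with 14.5% of all genes tested called lower and 13.0% higher. Of 3 H3K27 demethylase genes, Kdm6b rose (log2 fold change 0.22, edgeR adjusted p = 0.00927) and the other two were not called. Of 11 genes of the Polycomb deubiquitylase PR-DUB and its partners, 5 fell and 1 rose, and their median was −0.08 on the log2 scale. The smallest p among those that fell were in Hcfc1 (−0.27) and Asxl1 (−0.29), and Kdm1b (0.34) rose. Of 11 genes for H3K4 and H3K36 methyltransferases and H3K27 acetyltransferases, Ep300 (−0.21) and Kmt2a (−0.19) fell and 9 were not called, with a median of −0.06. With total counts the medians of these last lists were 0.01 and 0.04, with 4 and 0 falling.

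Transcripts of cell cycle genes were measured beside the members. Over all genes tested, 14.5% were called lower and 13.0% higher. Of 22 replication genes driven by E2F, 15 fell, none rose and 7 were not called, and the median log2 fold change was −0.26, beside −0.25 for Ezh2, −0.37 for Eed and −0.54 for Jarid2. Pola1 (−0.53) and Mcm7 (−0.37) had the smallest p. Of 18 genes of G2 and mitosis, 16 fell and none rose, with a median of −0.30; Mki67 (−0.38) and Bub1b (−0.37) led by p. Of 13 genes for E2F, DP and pocket proteins, 5 fell (E2f4 at −0.42 and E2f8 at −0.69 with the smallest p), 1 rose (Rb1, 0.32) and 7 were not called. With total counts the replication list had 9 falling (median −0.16) and the G2 and mitosis list 13 (median −0.20). How far cell cycle position enters the values of Ezh2, Eed and Jarid2 was not tested.

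**Figure D4:**
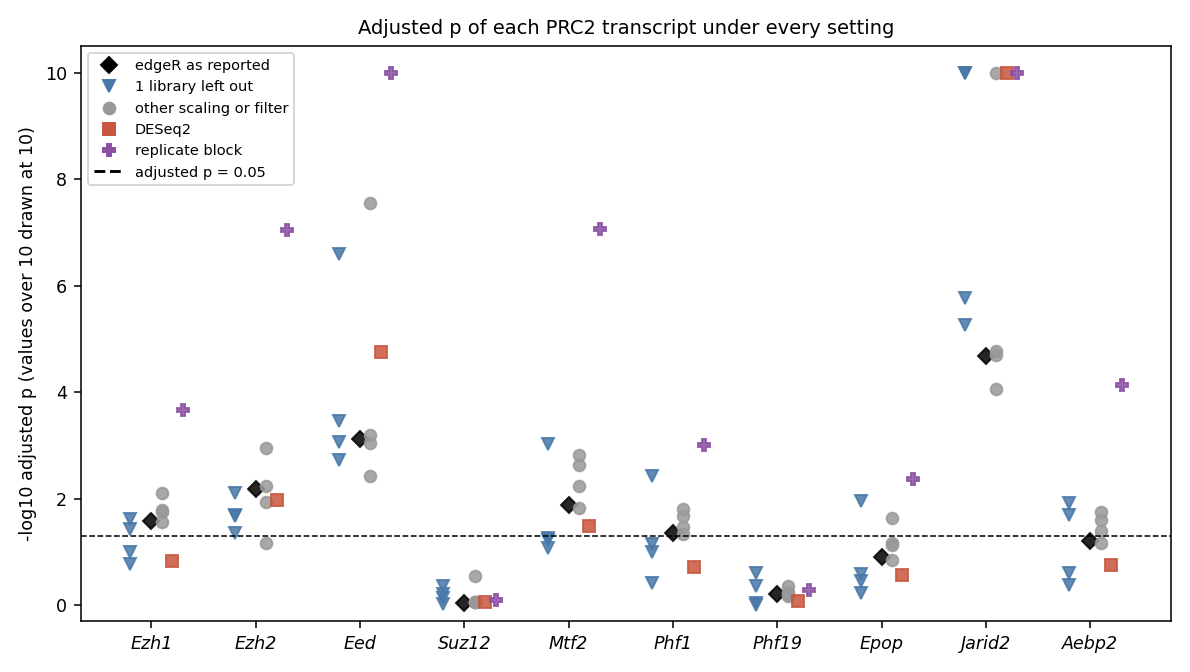
Minus log10 of the adjusted p (vertical axis; values over 10 drawn at 10) for each member under edgeR as reported and 10 alternatives, with 1 symbol kind for each sort of alternative and a dashed line at an adjusted p of 0.05. Every symbol of Eed and Jarid2 lies above the line, every symbol of Suz12 and Phf19 below it, and the other members have symbols on either side.

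H3K27me3, the product of the complex, was found at the promoter of 1 of the 10 members, Phf19. A promoter was taken to reach 1 kb up and 1 kb down from the 5′ end that the count table gives. Phf19 had a peak there in the ChIP-seq sample and in the CUT&RUN sample, against 9.09% and 13.2% of 32968 placed genes, and 5.95% with both. Of the 13516 placed genes that were tested for expression, 3.79% had both. Some RefSeq starts of the promoter sequences lay more than 1 kb from the 5′ end used here. These were in Jarid2 (1300 and 1797 bases), Aebp2 (2460 and 4436 bases) and Mtf2 (12491 bases). At 5 kb up and down from the 5′ end used here, Phf19 was still the only member with a peak in either assay. The first ChIP-seq peak began 72 bp inside the gene and reached into the end of the Phf19 promoter shown above, and the first CUT&RUN peak began 851 bp inside the gene.

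Over the Phf19 gene there were 6 ChIP-seq peaks and 4 CUT&RUN peaks, spread over its length. Of placed genes, whatever their length, 2.64% had at least 6 and 4, cutoffs taken from the counts of Phf19 itself. The strongest ChIP-seq peak had a fold enrichment of 4.67 and a −log10 q of 4.32 and lay 2301 to 2816 bp downstream of the 5′ end. That fold exceeded 3.89, the 90th percentile of the list, but it was the highest of 6, whereas the percentile is that of single peaks. The other ChIP-seq peaks within the gene had folds of 3.04 to 3.67, below 3.89. The ChIP-seq peak nearest the start had a fold of 3.04, below the median of 3.29. A further ChIP-seq peak lay 3.4 kb upstream of the 5′ end, outside the gene, with a fold of 3.79. The CUT&RUN peak nearest the start was 4082 bp wide, against a median of 862 bp, and had a fold of 3.24 and a −log10 q of 2.07. These are the authors' values for single peaks, from 1 sample per assay, so they carry no replicate error.

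The other 9 members had no promoter peak in either assay. Their nearest ChIP-seq peak lay 12.1 to 470 kb from the 5′ end and their nearest CUT&RUN peak 11.5 to 299 kb away, with Phf1 the closest and Aebp2 or Mtf2 the farthest. Jarid2 alone among them had a peak within the gene, a ChIP-seq peak 140 kb downstream of its 5′ end. Thus 8 of 10 members had no peak in the gene in either list, against 73.9% of placed genes. The marked member was also the one with the lowest transcript level, and its transcript was not called changed with auxin. At a −log10 q of at least 2 the Phf19 promoter lost its ChIP-seq peak but kept its CUT&RUN peak, a threshold at which 4.60% and 4.55% of placed genes were marked in these lists. With a window of 500 bp it kept the ChIP-seq peak and lost the CUT&RUN peak.

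**Figure D5:**
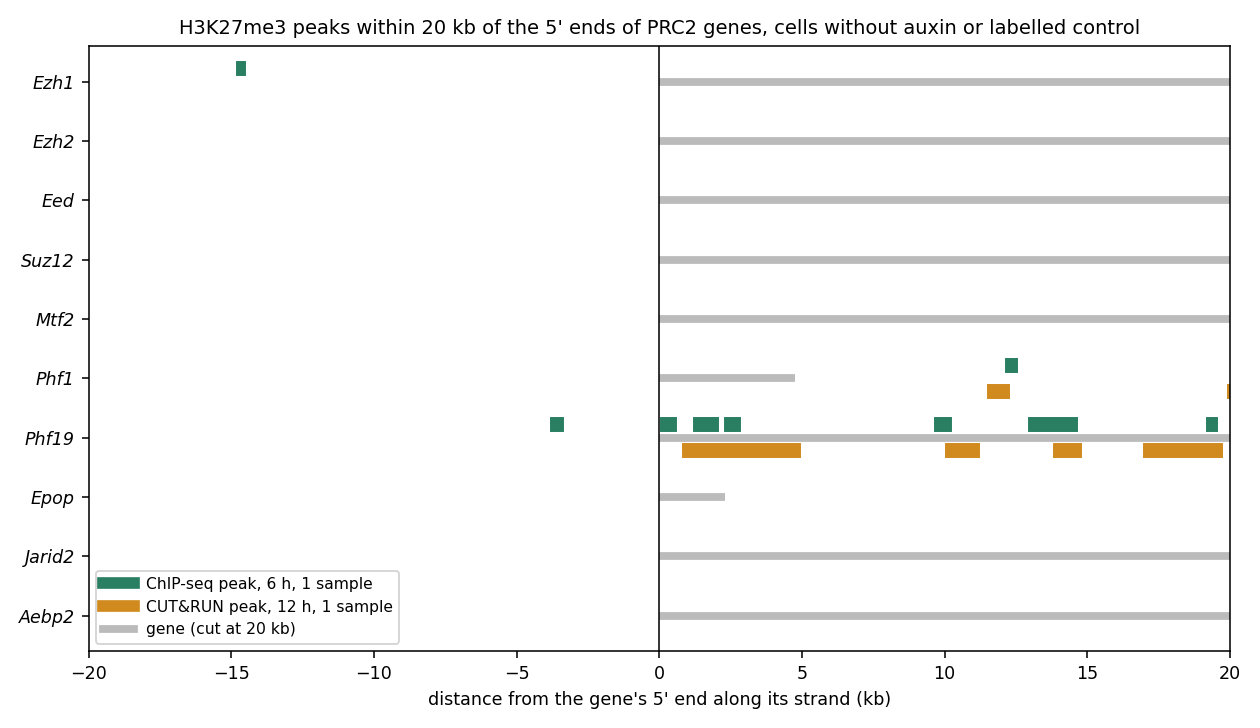
H3K27me3 peaks within 20 kb of the 5′ end of each member gene (horizontal axis, distance along the gene's strand; grey, the gene), with ChIP-seq peaks in green above and CUT&RUN peaks in orange below, 1 sample each. Peaks cover parts of Phf19 from its start onward, and a further ChIP-seq peak lies 3.4 kb upstream of that gene. Apart from Ezh1 and Phf1, each with peaks outside the gene, the other rows are empty.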

How the data were processed

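Polyadenylated RNA was sequenced from 4 libraries as strand-marked read pairs, per the labels. Per the file headers, the deposited values are raw counts of fragments: featureCounts 1.6.3 counted pairs on the reverse strand over exons of an mm10 annotation, summed by gene name and without multi-mapping or overlapping assignments. The submitters' processing notes name STAR 2.6.1d, Bowtie2 2.4.1 and MACS2 2.1.1, and list mm10 and dm6 as builds. For every broad peak the authors deposited a score, a fold enrichment (a ratio) and −log10 values of p and of q, from 1 sample per assay. Their cutoff, control library and read depth are not stated here.

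The main test was edgeR 4.0.16 under R 4.3.3 (TMM factors, default expression filter, quasi-likelihood F test, two-sided, Benjamini-Hochberg adjustment over the 13522 genes tested, threshold 0.05). A standard error is the size of the log2 fold change divided by the square root of F. CPM and RPKM values were computed from these counts with TMM-scaled library sizes and the deposited exon lengths. Replicate libraries were not repeats of 1 library: chi-square over degrees of freedom was 3.86 (no auxin) and 11.1 (auxin). The test was checked on simulated counts. Alternatives were RLE, upper-quartile and total-count scaling, no expression filter, DESeq2 1.42.0, a replicate block, leaving out each library, and other peak windows and thresholds.

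The members and the gene lists were chosen with earlier results of these data known. Named genes are all members, all further PRC2 partners, and from each other list at most 2 genes per direction with the smallest p. Promoter sequences are from RefSeq (GRCm38.p6). On the count table's strand no member shares exon bases with another gene; Ezh2, Eed, Suz12 and Mtf2 overlap a gene on the opposite strand, which strand-specific counting keeps apart. The input, IgG, auxin and PRC2 inhibitor samples of the chromatin assays were not analysed here.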

Additional observations from a re-analysis of the deposited data

How the results depend on the processing

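Of the members, Eed and Jarid2 kept their call under all 10 alternatives. The number of members called higher was 3 as reported, 5 with total counts, 1 with DESeq2 and 1 to 4 when a library was left out, while 3 members were lower in every setting except total counts (2). Over all genes, total counts gave 2735 higher and 988 lower, DESeq2 gave 881 higher, and leaving out a library gave 1225 to 1705 higher and 1257 to 1914 lower. With a library left out, 1 group has a single library, assumed to vary like the other group. Suz12 turned positive with upper-quartile scaling (0.0157), with total counts (0.0827), without no-auxin replicate 1 (0.0125) and without auxin replicate 2 (0.0555). Its lowest value was −0.0794 (without auxin replicate 1). Phf19 ranged from −0.0648 (without no-auxin replicate 1) to 0.53. The cause was not tested.

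Labels give both groups the replicate numbers 1 and 2 but do not say that a number marks a shared culture or day. Replicate differences correlated at 0.227 between groups, and with 2 pairs the pairing is not established. With the replicate number as a block, 5 members were higher and 3 lower, and 2972 genes were higher and 3177 lower. The block added Epop (adjusted p = 0.00420) and Aebp2 (adjusted p = 7.19e-05) to the members called higher and changed no other member's call. The shift of Ezh1 against Ezh2 was 0.45 and 0.63 within the pairs. Their mean of 0.54 equals the unpaired shift by arithmetic and is no further check of it.

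Members with a ChIP-seq promoter peak numbered 1 as reported and 0 at a −log10 q of at least 2 or at least 5. For CUT&RUN the number was 0 with a window of 500 bp, at a −log10 q of at least 5, or with at least 500 bp of the window covered. Counts limit Phf19 most, at 35 to 55 per library.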
